A study of Acorus calamus with 8 samples.

Results

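The enzymes described here are 87 of the 24636 assembled features that the 8 tables of sweet flag (Acorus calamus) name. They were taken by their SwissProt description (phenylalanine ammonia-lyase, trans-cinnamate 4-monooxygenase, 4-coumarate-CoA ligase, cinnamoyl-CoA reductase, cinnamyl alcohol dehydrogenase, O-methyltransferase, eugenol synthase and the enzymes of the shikimate ester shunt) or by an Nr description that holds propenylphenol. The wording O-methyltransferase is wide: 12 of the 87 are named for proteins, RNA, jasmonate, xylan or ubiquinone precursors and lie outside the pathway. Another 16 are named for other small molecules (coclaurine, acetylserotonin, resveratrol or tocopherol), and whether they act in the pathway was not tested. Features are contigs between 212 and 2893 bases long, so several can belong to 1 gene. Of the 87, 33 sit in 13 contig clusters that hold more than 1 member. Contigs of 1 cluster may share reads, which was not measured.

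The general phenylpropanoid pathway turns phenylalanine into activated hydroxycinnamic acids. Phenylalanine ammonia-lyase (PAL) removes the amino group, cinnamate 4-hydroxylase (C4H) adds a hydroxyl group, and 4-coumarate-CoA ligase (4CL) joins the product to coenzyme A. Hydroxycinnamoyltransferase (HCT) and caffeoylshikimate esterase (CSE) serve ring hydroxylation by way of a shikimate ester. O-methyltransferases such as caffeoyl-CoA O-methyltransferase (CCoAOMT) then place methoxy groups, and cinnamoyl-CoA reductase (CCR) and cinnamyl alcohol dehydrogenase (CAD) reduce the acyl chain to the alcohols from which lignin is built. Sweet flag is known for the asarones of its rhizome oil, phenylpropenes with methoxy groups on the ring. In other plants, eugenol and isoeugenol synthases make phenylpropenes from esters of coniferyl alcohol.

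The libraries came from explants cultured on Murashige and Skoog (MS) medium with 2 synthetic auxins, 2,4-D at 2 mg/l and NAA at 0.5 mg/l, which all groups received. There was 1 library for each of 8 groups: rhizome and leaf, of explants whose leaves had been cut and of uncut ones, at a month and at 4 days. The series asks which genes go with rhizome induction. No group has a replicate, so each factor was tested over its 4 matched pairs, and the p-values speak of the spread among these 8 libraries, not among plants or cultures. In such bulk samples, fewer cells of a type and less RNA per cell cannot be told apart.

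Library totals ran between 6876377 and 12541185 expected counts, but ribosomal RNA took 89.3% to 97.8% of them in rhizome and 74.9% to 82.2% in leaf. Uncut rhizome at 4 days was by far the thinnest library, with 68559 counts on nuclear features of certain class, against 268897 to 1470050 in the other 7, and only 9 of the 87 members reached 10 counts in it. Levels by library are therefore given as scaled CPM, counts scaled to a common library total with TMM (a method that equalises the bulk of features between libraries). A count of 0 allows up to 1.41 scaled CPM in uncut rhizome at 4 days and up to 0.102 to 0.507 in the other 7, counted as 3 reads and for counting error only. Levels are compared between members only per length, in FPKM as deposited (fragments scaled by feature length and library total). The library total in FPKM includes ribosomal RNA. By FPKM, 31 of the 54 tested members were highest in uncut leaf at a month, and by scaled CPM 10.

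Together the 87 members held between 0.415% and 0.697% of the nuclear counts of a library. At a month they held 0.523% [0.496, 0.551] in cut rhizome, 0.466% [0.444, 0.489] in uncut rhizome, 0.631% [0.610, 0.652] in cut leaf and 0.697% [0.683, 0.710] in uncut leaf (exact 95% Clopper-Pearson intervals, counting error only). At 4 days they held 0.415% [0.398, 0.432] in cut rhizome, 0.426% [0.379, 0.478] in uncut rhizome, 0.481% [0.465, 0.498] in cut leaf and 0.548% [0.531, 0.565] in uncut leaf. Each rhizome library thus lay under the leaf library of the same time and cutting, and each month library lay above its 4-day match. A few features carried most of these reads: the 10 members with the most counts held 60.4% of the 26764 member counts. Per length, the highest mean levels over the 8 libraries were 13.9 FPKM for the C4H feature CL1296.Contig2, 13.1 for the CCR feature CL645.Contig4, 13.0 for the PAL feature CL854.Contig2 and 12.6 for the CAD feature Unigene1279. At the other end, 33 members were too thin for the test, with at most 37 counts in any library and 2.51% of the member counts together.

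**Figure D1:**
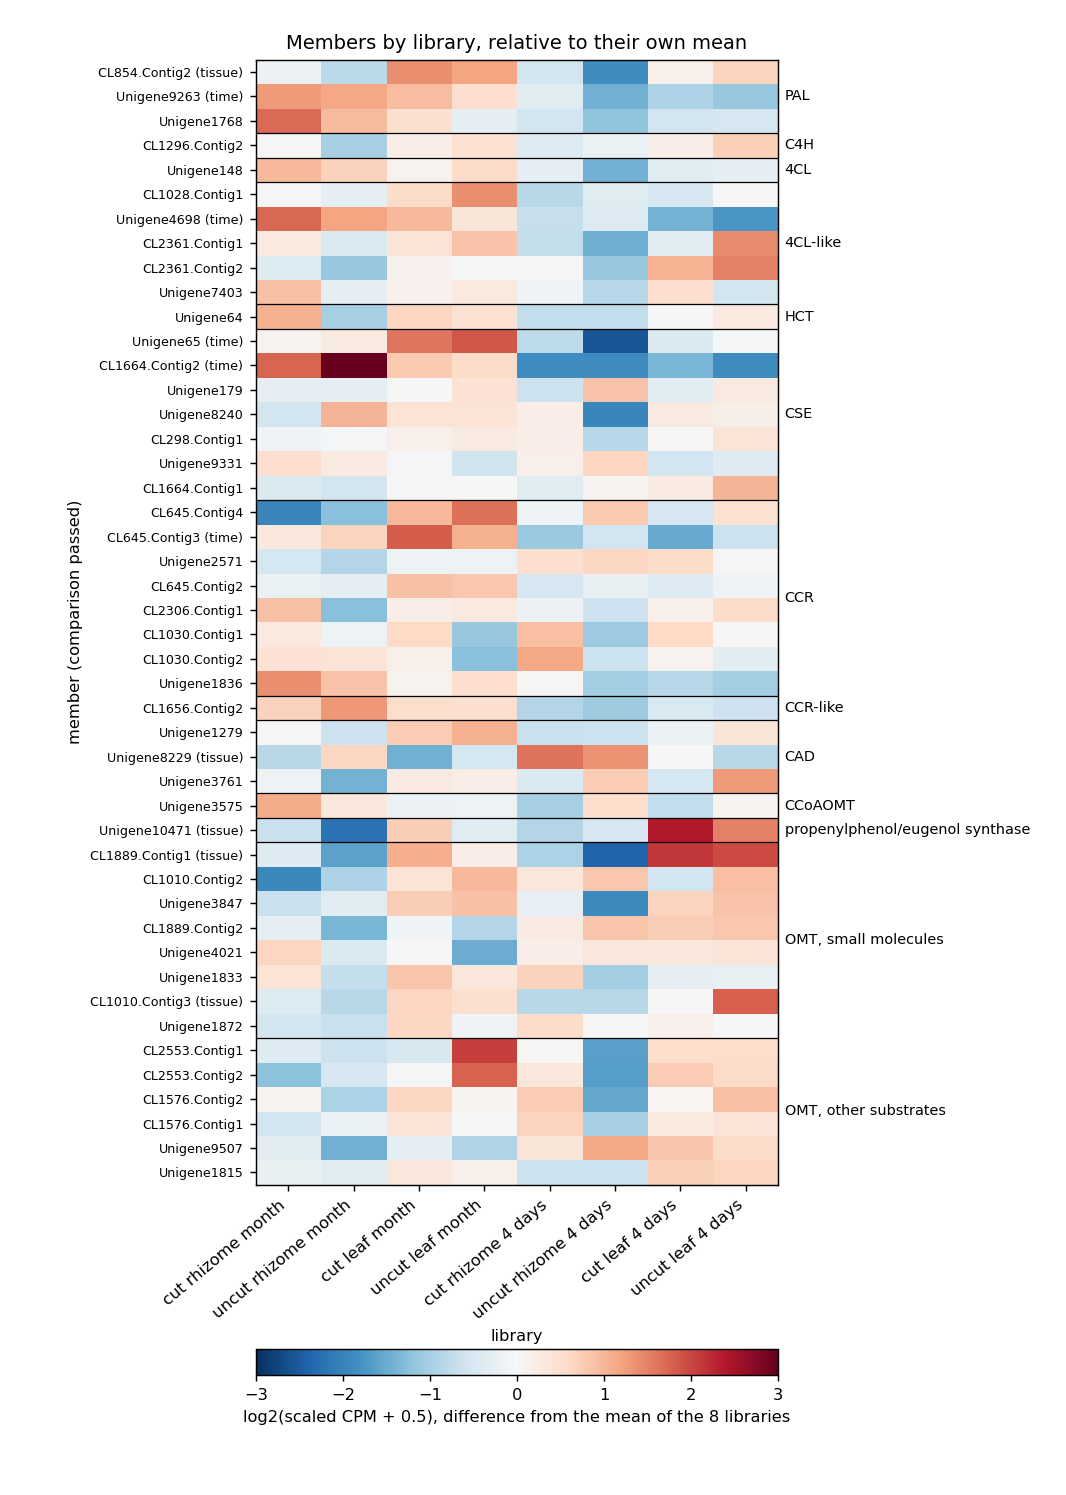
Each row is 1 of 46 tested members, grouped by enzyme class, and each column 1 library; colour gives log2(scaled CPM + 0.5) minus the row's mean over the 8 libraries, and the name of a comparison follows the 10 members shown that passed the threshold in it. Members of 1 class differ from each other in which libraries are red (above their own mean), as CL645.Contig3 and CL645.Contig4 do among the CCR features.

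A small set of these enzymes passed for tissue or for time, at shares not far above those of all features. No member passed in both comparisons, and the number of all features that did is not given here. Between rhizome and leaf, 7 of the 54 tested members passed an adjusted p of 0.05 (edgeR quasi-likelihood test, Benjamini-Hochberg over 11682 features), 1 higher in rhizome and 6 lower. That is 13.0% of the members, against 9.0% of all features tested (242 higher, 809 lower). The median log2 fold change, rhizome over leaf, was -0.70 over the members and -0.14 over all features. On the FPKM scale 22 of the 54 members passed, 0 higher and 22 lower (limma on log2(FPKM + 1)). In that fit 2582 of all 11682 features passed (22.1%), with the median of all features at -0.73. With 1 pair left out, 2 members passed without the uncut 4-day pair, 3 without the uncut pair of a month and 6 without the cut pair of either time, while 444 to 992 of all features passed in these fits. Between a month and 4 days, 8 members passed, all higher at a month, which is 14.8% against 8.76% of all features (912 higher, 111 lower). Here the median was 0.08 over the members and 0.02 over all features, and 5 members passed without the cut leaf pair, 3 without the uncut leaf pair, 4 without the cut rhizome pair and 6 without the uncut rhizome pair, beside 589 to 984 of all features. Between cut and uncut explants no member passed in edgeR's test, against 0.00856% of all features (1 feature), and 1 member had an unadjusted p under 0.05, against 8.28% of all features. The DESeq2 Wald test called 0 members for cutting, against 0.599% of all features, and 3 members had an unadjusted p under 0.05, against 9.24% of all features.

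In 11 members (20.4%) the 4 rhizome and the 4 leaf levels did not overlap, against 12.4% of all features. In 16 members (29.6%) the month and the 4-day levels did not overlap, against 12.1% of all features. For cutting this held for 1 member (1.85%), against 2.69% of all features.

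Leaf marker transcripts moved with both comparisons. Of 40 features for photosynthetic proteins (the small chain of ribulose bisphosphate carboxylase, chlorophyll a-b binding proteins and Calvin cycle enzymes), 35 were tested, 30 were lower in rhizome and 10 were lower at a month. Their summed level was 96.4 and 39.5 scaled CPM in cut and uncut rhizome at a month and 181 and 140 in cut and uncut rhizome at 4 days, against 1495 and 1128 in cut and uncut leaf at a month and 2772 and 4098 in cut and uncut leaf at 4 days. In all 4 rhizome libraries 5 of the 40 were at 0 counts, and between 6 and 16 were at 0 in a single rhizome library. Marker features of lignifying xylem were thin: 1 of 9 could be tested and did not pass, their sum ran between 5.64 and 19.9 scaled CPM in rhizome and between 3.06 and 33.2 in leaf, and 5 of the 9 were at 0 in every rhizome library. The part that leaf tissue content, or the ribosomal share, has in the tissue differences below was not tested.

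**Figure D2:**
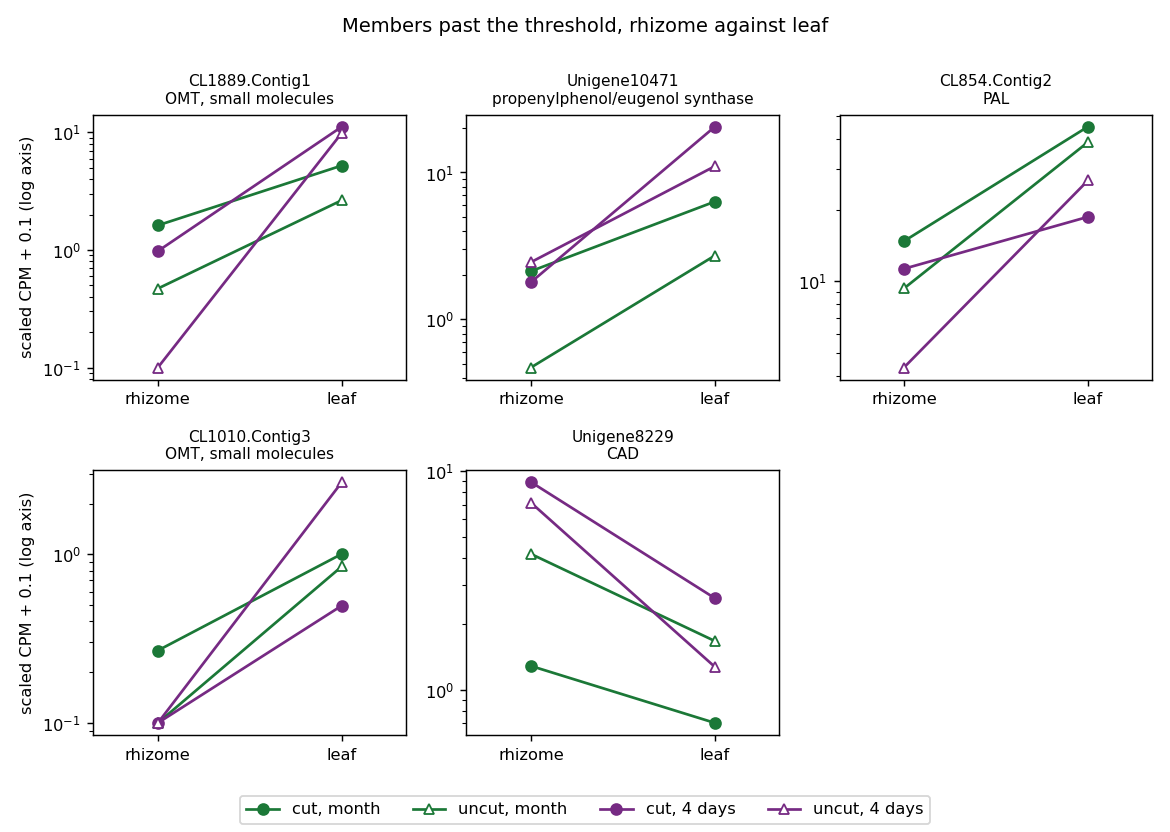
Scaled CPM plus 0.1, on a log axis, of 5 of the 7 members past the threshold between rhizome (left) and leaf (right); each line joins the 2 libraries of a matched pair, with colour for the time and the marker for cutting. In 4 of these all 4 rhizome values lie under all 4 leaf values, and in the CAD feature Unigene8229 every line runs the other way.

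PAL, the entry to the pathway, had 2 well covered features with different profiles. CL854.Contig2, described as PAL 3, held 14.7 and 9.24 scaled CPM in cut and uncut rhizome at a month and 11.2 and 4.23 in cut and uncut rhizome at 4 days. In leaf it held 45.0 and 38.7 in cut and uncut explants at a month and 18.6 and 26.6 at 4 days. All rhizome values lay under all leaf values, with a log2 fold change of -1.73 ± 0.44 (standard error; adjusted p = 0.0228). The call was lost without the uncut 4-day pair, the cut month pair or the uncut month pair (adjusted p = 0.103, 0.0760 and 0.121). Unigene9263 held 24.5 and 22.3 scaled CPM in cut and uncut rhizome and 18.8 and 13.9 in cut and uncut leaf at a month, against 7.50 and 3.29 in cut and uncut rhizome and 4.89 and 4.18 in cut and uncut leaf at 4 days. This PAL feature was higher at a month in all 4 pairs with no overlap (log2 fold change 2.00 ± 0.46, adjusted p = 0.0173), and between rhizome and leaf its log2 fold change was 0.38 ± 0.40 (adjusted p = 0.621). Its time call was lost without the uncut leaf pair, the cut rhizome pair or the uncut rhizome pair (adjusted p = 0.0587, 0.0628 and 0.0530). Another PAL feature, Unigene1768, averaged 1.62 scaled CPM at a month and 0.211 at 4 days and did not pass (adjusted p = 0.137), and the other 5 of the 8 PAL features were too thin to test.

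C4H, the pathway's first cytochrome P450, was a single feature, CL1296.Contig2, the highest member by mean FPKM over the 8 libraries but not in each of them. It held 17.2 and 8.25 scaled CPM in cut and uncut rhizome at a month and 12.8 and 14.6 in cut and uncut rhizome at 4 days. The leaf values were 19.3 and 23.3 in cut and uncut explants at a month and 19.4 and 28.2 at 4 days. All 4 rhizome values lay under the 4 leaf values, yet the difference did not pass (log2 fold change -0.80 ± 0.40, adjusted p = 0.246).

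4CL was carried by Unigene148, with 27.4 and 22.4 scaled CPM in cut and uncut rhizome and 14.6 and 20.6 in cut and uncut leaf at a month. At 4 days it held 11.1 and 4.70 in cut and uncut rhizome and 10.5 and 11.3 in cut and uncut leaf. The month values lay above all 4-day values, but the log2 fold change of 1.19 ± 0.48 did not pass (adjusted p = 0.181). The second 4CL feature, Unigene17906, had 2 counts in all. Among 7 features described as 4CL-like, acyl-activating enzymes of which many act outside this pathway, 5 were tested and 1 passed. Unigene4698, described as 4CL-like 4, held 9.79 and 6.53 scaled CPM in cut and uncut rhizome and 5.64 and 3.51 in cut and uncut leaf at a month. Its 4-day values were 1.42 and 1.88 in cut and uncut rhizome and 0.661 and 0.430 in cut and uncut leaf. It was higher at a month in all 4 pairs with no overlap (log2 fold change 2.71 ± 0.53, adjusted p = 0.00624). Its call held without each pair in turn.

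**Figure D3:**
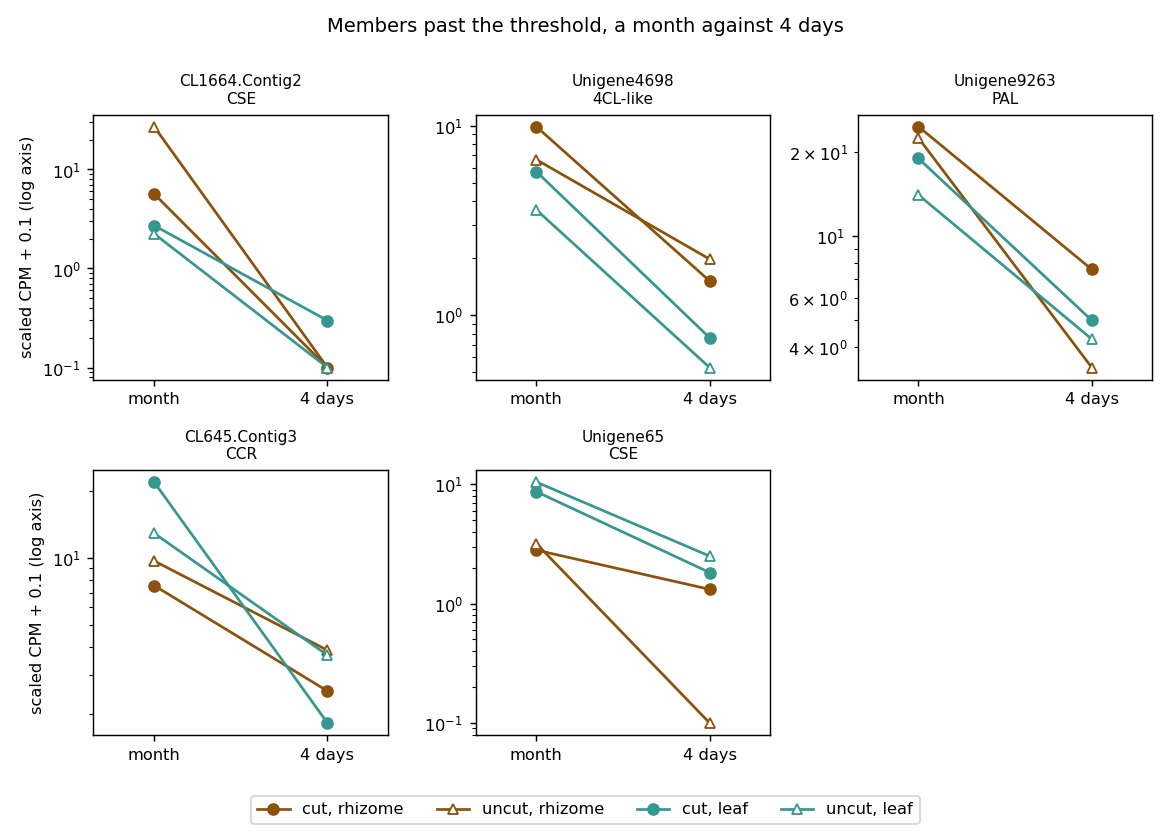
Scaled CPM plus 0.1, on a log axis, of 5 of the 8 members past the threshold between a month (left) and 4 days (right); each line joins the 2 libraries of a matched pair, with colour for the tissue and the marker for cutting. Every line falls toward 4 days, and the CSE feature CL1664.Contig2 is at 0 counts in 3 of the 4 libraries at 4 days.

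Among features described for the shikimate ester shunt, only some described as CSE passed, the esterase that frees caffeic acid from its shikimate ester. Their SwissProt matches had e-values (lower is closer) of 5.3e-48 for CL1664.Contig2 and 1.8e-27 for Unigene65. The HCT feature Unigene64 had 7e-193. Whether the CSE features act in the shunt was not tested. CL1664.Contig2 held 5.57 and 27.0 scaled CPM in cut and uncut rhizome and 2.62 and 2.14 in cut and uncut leaf at a month, from 33, 219, 26 and 63 counts. At 4 days it had 3 counts in cut leaf and 0 in the other 3 libraries. Pooled over the libraries of each time, the 341 counts at a month and the 3 at 4 days gave a ratio of 103 [34.9, 502] (exact 95% interval, counting error only), and the fit passed with an adjusted p of 0.00150 and a log2 fold change of 6.05 ± 0.90, whose size depends on the added prior count. The other contig of its cluster, CL1664.Contig1, may share reads with it, and the cluster as a whole was higher at a month by 2.92 ± 0.76 on the log2 scale (adjusted p = 0.0292). Unigene65, also described as CSE, held 2.70 and 3.08 scaled CPM in cut and uncut rhizome and 8.55 and 10.3 in cut and uncut leaf at a month, against 1.22 and 0.00 in cut and uncut rhizome and 1.72 and 2.40 in cut and uncut leaf at 4 days. It was higher at a month (log2 fold change 2.13 ± 0.59, adjusted p = 0.0418), a call lost with DESeq2 size factors, with both FPKM fits and without the cut leaf, uncut leaf or cut rhizome pair (adjusted p between 0.0523 and 0.151). Of the 10 CSE features 7 were tested, and the remaining 5 of those did not pass for tissue or time. Of the 2 HCT features, Unigene64 averaged 3.95 scaled CPM at a month and 2.25 at 4 days and did not pass (adjusted p = 0.540), and CL2583.Contig1 was too thin to test.

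CCR, which opens the branch to the monolignols, had 8 tested features and 1 that passed, CL645.Contig3. The SwissProt match of CL645.Contig3 had an e-value of 4.2e-26, and the closest match among these features was CL2306.Contig1, with 4.4e-150. CL2306.Contig1 averaged 4.59 scaled CPM at a month and 4.01 at 4 days and did not pass for time (edgeR adjusted p = 0.956). Whether either acts in this branch was not tested. CL645.Contig3 held 7.43 and 9.61 scaled CPM in cut and uncut rhizome and 21.8 and 12.8 in cut and uncut leaf at a month. Its 4-day values were 2.43 and 3.76 in cut and uncut rhizome and 1.72 and 3.57 in cut and uncut leaf. The month values lay above all 4-day values (log2 fold change 2.12 ± 0.54, adjusted p = 0.0288). That call was lost without the cut leaf, uncut leaf or cut rhizome pair (adjusted p = 0.149, 0.10 and 0.0664), and the cluster summed did not pass (log2 fold change 0.95 ± 0.49, adjusted p = 0.318). Its cluster partner CL645.Contig4 held 1.52 and 2.83 scaled CPM in cut and uncut rhizome and 15.2 and 24.6 in cut and uncut leaf at a month, against 6.82 and 13.2 in cut and uncut rhizome and 5.16 and 10.5 in cut and uncut leaf at 4 days. At a month both rhizome values lay under both leaf values, and at 4 days the tissues overlapped. The test of that change (the tissue difference at a month minus that at 4 days) gave a log2 value of -3.58 ± 0.91 and an adjusted p of 0.370 in edgeR and 0.00350 in the DESeq2 Wald test. Unigene2571, with no cluster partner, ran the other way in time, with 9.79 and 7.64 scaled CPM in cut and uncut rhizome and 12.9 and 13.0 in cut and uncut leaf at a month, all under its 4-day values of 20.8 and 22.6 in cut and uncut rhizome and 21.3 and 14.9 in cut and uncut leaf; this did not pass (log2 fold change -0.89 ± 0.45, adjusted p = 0.329). Of the 2 CCR-like features described as SNL6, CL1656.Contig2 averaged 1.32 scaled CPM at a month and 0.129 at 4 days, without passing in edgeR (log2 fold change 2.83 ± 0.83, adjusted p = 0.0558). Summed with the other contig of its cluster, it did pass (log2 fold change 2.47 ± 0.73, adjusted p = 0.0481).

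CAD, which forms the monolignols themselves, held the one member that passed the threshold as higher in rhizome. Unigene8229, described as a probable CAD 1, held 1.18 and 4.07 scaled CPM in cut and uncut rhizome at a month and 8.78 and 7.05 in cut and uncut rhizome at 4 days. In leaf the values were 0.604 and 1.57 in cut and uncut explants at a month and 2.51 and 1.17 at 4 days. Rhizome was higher within all 4 pairs, though the 2 tissues overlapped, with a log2 fold change of 1.72 ± 0.47 (adjusted p = 0.0333). The call was lost in the additive model (adjusted p = 0.0894), without the cut 4-day, uncut 4-day or uncut month pair (0.0949, 0.104 and 0.0682) and on the FPKM scale, where the log2 fold change was 0.39 ± 0.55 (adjusted p = 0.602). The most abundant CAD feature, Unigene1279 (CAD 2), averaged 13.3 scaled CPM in rhizome and 27.9 in leaf. It was lower in rhizome within all 4 pairs but did not pass in edgeR (log2 fold change -1.02 ± 0.40, adjusted p = 0.133), while it passed in the DESeq2 Wald test (adjusted p = 0.0418).

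**Figure D4:**
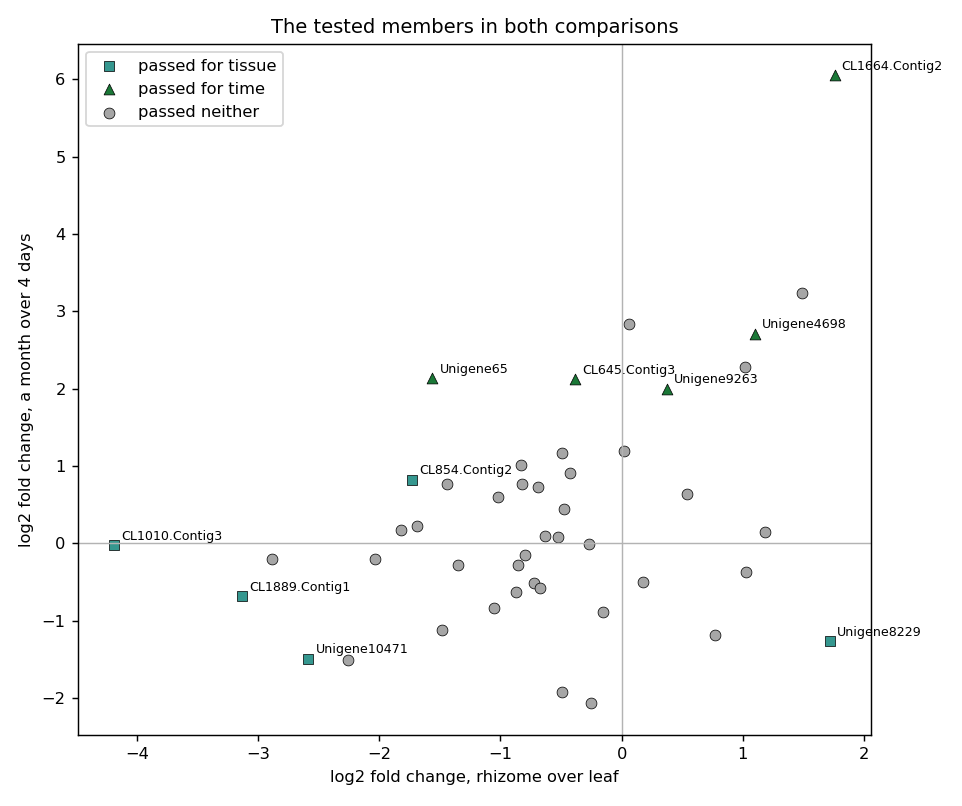
The log2 fold change of 46 tested members between rhizome and leaf (horizontal axis) and between a month and 4 days (vertical axis), marked by the comparison in which it passed. Unigene10471 stands at -2.59 on the tissue axis, and the CSE feature CL1664.Contig2 at 6.05 on the time axis.

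The phenylpropene branch was represented by 2 features, and the one that could be tested was lower in rhizome. Unigene10471 (1487 bases) is described as propenylphenol synthase 1 in Nr and as eugenol synthase 1 in SwissProt. It held 2.03 and 0.370 scaled CPM in cut and uncut rhizome at a month and 1.69 and 2.35 in cut and uncut rhizome at 4 days, from 12, 3, 25 and 5 counts. In leaf it held 6.24 and 2.62 in cut and uncut explants at a month and 20.4 and 10.9 at 4 days, from 62, 77, 309 and 178 counts. All rhizome values lay under all leaf values (log2 fold change -2.59 ± 0.50, adjusted p = 0.00444), and the call held in every alternative fit run, including those without each pair and without ribosomal RNA and organelle features. Pooled over the 4 libraries of a tissue, its level in rhizome was 0.164 [0.118, 0.222] of that in leaf. Within leaf the 4-day libraries were higher than the month ones, as were the leaf markers above. Its difference between a month and 4 days over both tissues did not pass (log2 fold change -1.49 ± 0.57, adjusted p = 0.158), nor did that between cut and uncut explants (1.004 ± 0.54, adjusted p = 0.671), although cut exceeded uncut in 3 of 4 pairs. The second feature, Unigene789, described as isoeugenol synthase 1-like in Nr, had 1 count in the 4 rhizome libraries and 15 in the 4 leaf libraries, too few to test.

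CCoAOMT, a methyltransferase of lignin synthesis, had 1 testable feature of 3, Unigene3575, which averaged 4.66 scaled CPM at a month and 3.05 at 4 days and did not pass for tissue or time. Among the 16 O-methyltransferases named for other small molecules, 8 were tested and 2 passed, both described as trans-resveratrol di-O-methyltransferase, an enzyme of stilbene methylation in grapevine. CL1889.Contig1 held 1.52 and 0.370 scaled CPM in cut and uncut rhizome at a month and 0.878 and 0.00 in cut and uncut rhizome at 4 days. Its leaf values were 5.13 and 2.55 in cut and uncut explants at a month and 11.1 and 9.84 at 4 days. The tissues did not overlap (log2 fold change -3.13 ± 0.60, adjusted p = 0.00444), and the call held in every alternative fit run and for the summed cluster (-2.17 ± 0.44, adjusted p = 0.00519). CL1010.Contig3 had 1 count in the 4 rhizome libraries and 79 in the 4 leaf libraries, a pooled level 34.6-fold [6.03, 1384] lower in rhizome (adjusted p = 0.0275, lost without the cut or the uncut 4-day pair at 0.0790 and 0.143). Summed over its cluster, CL1010 did not pass (log2 fold change -1.496 ± 0.673, adjusted p = 0.177). Of the 12 O-methyltransferases with other substrates 6 were tested and none passed for tissue, time or cutting at the adjusted threshold. Their most abundant features per length, CL2553.Contig1 and CL2553.Contig2, are described as jasmonate O-methyltransferase, which makes the volatile methyl ester of jasmonate.

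**Figure D5:**
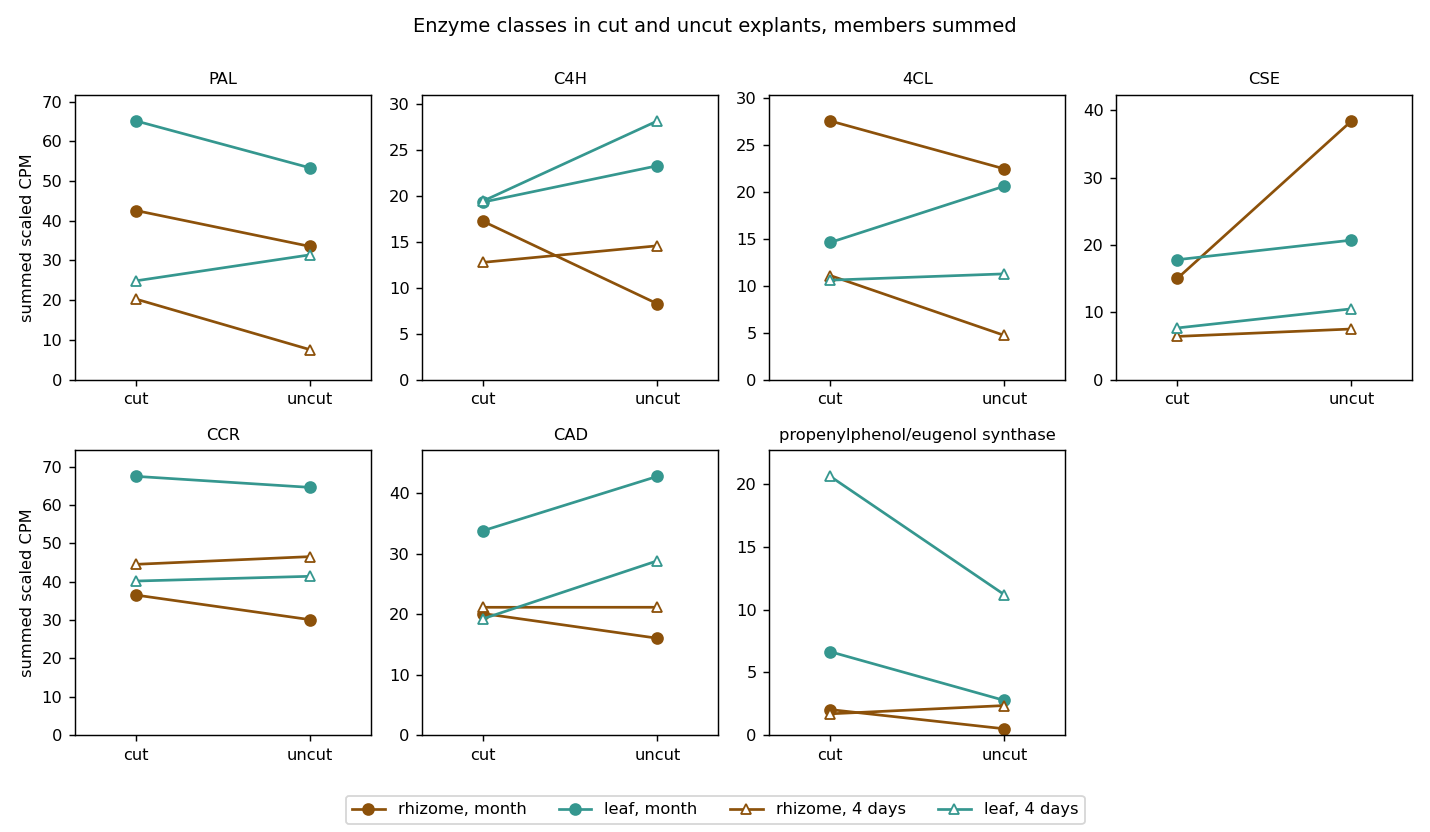
Summed scaled CPM of all members of 7 enzyme classes in cut (left) and uncut (right) explants; each line joins the 2 libraries of 1 tissue and time, with colour for the tissue and the marker for the time, and each axis starts at 0. Cut libraries were higher in some pairs and lower in others in 6 of the 7 classes, and in CSE the cut library was the lower one in all 4 pairs. The CSE sum rests on few features and counts. In uncut rhizome CL1664.Contig2 held 219 of its 312 counts at a month, and the sum at 4 days was 16 counts. No tested CSE feature was lower in cut explants in all 4 pairs, and none passed for cutting.

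Cutting could be read pair by pair for 10 to 31 of the 87 members, those with enough counts, and 1 or 2 of them in each pair passed a size rule. The rule, which is no test, was a ratio of 4-fold or more after TMM scaling, with 50 counts or more in the higher of the libraries. In rhizome at a month 1 of 10 members with enough counts passed, against 5.0% of 1601 features. It was the CSE feature CL1664.Contig2, with 33 counts in the cut and 219 in the uncut library and a cut to uncut ratio of 0.207 [0.139, 0.299]. In leaf at a month 2 of 31 passed, against 3.59% of 5426 features, both jasmonate O-methyltransferase contigs of 1 cluster. CL2553.Contig1 had 6 counts in the cut and 175 in the uncut library (ratio 0.101 [0.0367, 0.225]), and CL2553.Contig2 had 10 in the cut and 144 in the uncut library (ratio 0.205 [0.0964, 0.389]). Both are lower in the cut library of that pair, while at 4 days their leaf levels were 1.72 and 2.18 scaled CPM in cut and 1.72 and 1.84 in uncut explants. In rhizome at 4 days 1 of 12 passed, against 16.6% of 2666 features, and it did not pass when nuclear counts replaced TMM scaling. All 12 reached 50 counts in the cut library only, since the uncut one was far thinner. In this pair the rule thus favours features higher in cut explants, so its direction is not read. In leaf at 4 days 2 of 22 passed, against 18.3% of 3898 features. These were CL2361.Contig1, described as 4CL-like 9, with 9 counts in the cut and 52 in the uncut library (ratio 0.186 [0.0806, 0.381]), and Unigene3761, a probable CAD, with 10 counts in the cut and 58 in the uncut library (ratio 0.185 [0.0845, 0.366]).

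Over the 4 pairs, the smallest p for cutting among the members was that of the CCR feature CL1030.Contig1 (log2 fold change 1.497 ± 0.625, adjusted p = 0.519), which was higher in cut explants in all 4 pairs. Whether one factor's effect depended on another was tested with interaction terms, and no member passed in edgeR. For tissue by time 0.0% of all features passed, with 4 members and 575 of all features at an unadjusted p under 0.05, CL645.Contig4 the member with the smallest. For cutting by tissue 0.0% of all features passed, with 1 such member and 267 features, and for cutting by time 0.0171%, with 3 members and 1097 features. Different calls in different comparisons are thus not shown to be different effects.

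Pathways that feed or leave this one were read from lists of SwissProt descriptions. Over all features tested, 9.0% passed for tissue and 8.76% for time. In the shikimate pathway, the source of phenylalanine, 21 of 24 features were tested and 1 passed, for time. Unigene7211, described as arogenate dehydratase/prephenate dehydratase 6, which acts at the last steps to phenylalanine, held 10.5 and 9.73 scaled CPM in cut and uncut rhizome and 11.98 and 9.43 in cut and uncut leaf at a month. Its 4-day values were 3.24 and 0.470 in cut and uncut rhizome and 3.11 and 1.97 in cut and uncut leaf, and it was higher at a month in all pairs (log2 fold change 2.28 ± 0.52, adjusted p = 0.0166, 0.0661 without the uncut leaf pair). Of 20 features of the methyl donor cycle, which supplies S-adenosylmethionine to the methyltransferases, 17 were tested and 0 passed for any of the 3 factors, with median log2 fold changes of -0.11 for tissue and -0.03 for time. Of 6 features for the entry to flavonoids 5 were tested and 0 passed, with a median of -1.33 between rhizome and leaf.

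Of 24 features for other phenylpropanoid and lignan enzymes 12 were tested, and 4 passed for tissue and 3 for time. Over all features tested the shares were 9.0% for tissue and 8.76% for time. CL1966.Contig3, described as an isoflavone reductase-like protein, the protein family that eugenol synthases belong to, was far above every member per length at a mean of 217 FPKM. It held 77.3 and 85.3 scaled CPM in cut and uncut rhizome at a month and 31.1 and 79.9 in cut and uncut rhizome at 4 days, against 388 and 330 in cut and uncut leaf at a month and 118 and 235 in cut and uncut leaf at 4 days. It was lower in rhizome (log2 fold change -1.94 ± 0.38, adjusted p = 0.00502) with no overlap. CL66.Contig2, described as cytochrome P450 84A1, the ferulate 5-hydroxylase that precedes the second methylation in Arabidopsis, held 1.01 and 0.246 scaled CPM in cut and uncut rhizome and 12.9 and 13.3 in cut and uncut leaf at a month. At 4 days it held 0.338 and 0.00 in cut and uncut rhizome and 0.661 and 1.84 in cut and uncut leaf. It passed in both comparisons, lower in rhizome (log2 fold change -3.57 ± 0.74, adjusted p = 0.00786, 0.0652 and 0.0567 without the uncut 4-day and uncut month pairs) and higher at a month (3.03 ± 0.67, adjusted p = 0.0138, 0.134 without the cut leaf pair).

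In the same list 2 features were higher in rhizome. Unigene2739, described as putrescine hydroxycinnamoyltransferase, which joins hydroxycinnamic acids to polyamines, held 1.86 and 0.739 scaled CPM in cut and uncut rhizome at a month and 8.51 and 19.7 in cut and uncut rhizome at 4 days. In leaf it had 0 counts in both month libraries and 0.860 and 0.430 scaled CPM in cut and uncut explants at 4 days. It was higher in rhizome (log2 fold change 4.66 ± 0.67, adjusted p = 0.000565) and lower at a month (-3.81 ± 0.76, adjusted p = 0.00751). Unigene6388, described as a pinoresinol-lariciresinol reductase, gathered 38 counts in the rhizome libraries and 2 in the leaf ones, a pooled ratio of 43.4 [11.2, 371] (adjusted p = 0.00262). The seventh call, Unigene6795, described as dirigent protein 4, had 62 counts at a month, 47 of them in cut leaf, and 2 at 4 days, a pooled ratio of 28.1 [7.45, 237] (adjusted p = 0.0265).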

How the data were processed

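The 8 deposited tables hold, per the file headers, an expected count, an FPKM value, a length in bases and annotation text for each assembled feature. Per the submitters' processing notes, the authors used Bowtie2 and RSEM for the deposited expected counts and FPKM; no versions are named. RNA went through oligo dT selection or ribosomal RNA depletion, per the labels' protocols; the sources used here do not say which of these each library had. Features not listed in a table counted as 0 there, and expected counts were rounded to whole numbers.

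All features were fitted with edgeR 4.0.16 in R 4.3.3 (filterByExpr with a minimum of 10 counts, TMM, robust quasi-likelihood F tests). Tissue, time and cutting were each tested over 4 matched pairs with the other 2 factors as a block, leaving 3 residual degrees of freedom, so every such value is already a paired one. The pairing comes from the labels of tissue, time and cutting, and nothing says that paired libraries share a plant or a culture. Interaction terms were added 1 at a time to the additive model. The 11682 features that passed the filter, 54 of them members, shared one Benjamini-Hochberg adjustment, and the threshold was an adjusted p of 0.05. Log2 fold changes carry standard errors. For the edgeR fits these were back-calculated from the log2 fold change and the F statistic, so they restate the test. Alternatives used DESeq2 1.42.0 and limma 3.58.1 (limma on log2 FPKM with a pseudocount of 1 or 0.1, a scale that understates the change of low features). The script was tested on simulated data. Intervals came from SciPy 1.17.1.

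The classes ribosomal RNA (22 features), organelle (308) and nuclear (24306) rest on the deposited annotation. Unigene19161, 310 bases long and of uncertain class, was left out of the nuclear counts. One class of 10 members, 8 of them tested and 5 called, enters the counts over all members but is not reported here. Members named are the phenylpropene synthases, and in each class up to 4 members past the threshold and the 3 of highest mean FPKM. Up to 3 members per single pair were named as well. CL1030.Contig1, CL2306.Contig1, Unigene148's time value and the features of other lists were named after their values were seen. The members and lists were chosen with earlier results of these data known, and the shikimate list and the class of other O-methyltransferases were corrected after descriptions had been seen.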

Additional observations from a re-analysis of the deposited data

How the results depend on the processing

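Of the 15 members called for tissue or time, none changed direction in any alternative, and 5 stayed past the threshold in all of those run for them, among them Unigene10471 and CL1889.Contig1 for tissue, and CL1664.Contig2 and Unigene4698 for time. The count of members called for tissue was 7, against 22 and 20 with limma on log2(FPKM + 1) and log2(FPKM + 0.1), 4 with the contigs of 1 cluster summed and 2 to 6 with 1 pair left out; DESeq2 size factors, the DESeq2 Wald test, no count filter, the fit without ribosomal RNA and organelle features and the additive model gave 6 to 10. For time it was 8, 3 to 6 with 1 pair left out and 6 to 11 otherwise. For cutting it stayed at 0 in every fit. Calls over all features stand above for the main fits and, for tissue and time, for the fits with 1 pair left out. They also stand above for limma on log2(FPKM + 1) for tissue and the DESeq2 Wald test for cutting. For the other fits they are not given here, so those counts do not set the members apart from other features. For tissue by time the DESeq2 Wald test called 1 member, CL645.Contig4, and every other fit 0. The share of all features that the Wald test called for this term is not given here. That 1 call thus has no baseline beside it. An alternative chosen after seeing the data, without uncut rhizome at 4 days, left the 3 interaction counts at 0. The size rule for single pairs gave 1 member in rhizome at a month, 2 in leaf at a month, 1 in rhizome at 4 days and 2 in leaf at 4 days. At 2-fold it gave 2, 4, 6 and 5 in that order of pairs. With 20 counts in place of 50 it gave 4 in rhizome at a month, 4 in leaf at a month, 1 in rhizome at 4 days and 3 in leaf at 4 days. With nuclear counts in place of TMM the 1 in rhizome at 4 days became 0. The shares of all features past these altered rules are not given here, so these counts do not set the members apart from other features. In rhizome at 4 days the median log2 ratio of cut to uncut was 1.002 over the 2666 features with 50 counts or more. Over the 12 members with 50 counts or more that median was 0.856. No member had more than 48 counts in the uncut library, so all 12 entered through the deeper cut library. The 50-count rule thus favours ratios above 1 in this pair, and nothing is concluded from either median. Tested members highest in uncut leaf at a month numbered 31 by FPKM, 9 by share of nuclear counts and 10 by scaled CPM, the last chosen after seeing the data. The causes of these changes were not tested. Depth limits all statements on uncut rhizome at 4 days, where 50 of the 87 members, 21 of them among the 54 tested, had 0 counts. No fit without the pairing was run other than the additive model.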
